A study of Mus musculus with 5 samples.

Results

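The genes described here run the Ran cycle, which carries proteins and RNA through nuclear pores. They are Ran itself, the regulators Rcc1 and Rangap1, the Ran-binding proteins Ranbp1 and Ranbp2, the Ran carrier Nutf2, the import receptors Kpnb1 and Kpna2 and the export receptor Xpo1. The genes were chosen by name with the differences between the crosses on these same arrays already known, so those differences are a description, and the test results given beside them support nothing. A probe set, the group of array probes that gives 1 value, was assigned to a gene when the platform annotation gave it exactly 1 symbol. By this rule 8 of the 9 genes had 23 probe sets among the 45101 of the array, and Nutf2 had 0. Of the 23, 17 had a mean over the 5 arrays at or above 2.51 on the log2 scale, the median of all probe sets that are not controls. These 17 entered the fit with 22519 probe sets in all, and each of the 8 genes had at least 1.

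Whole blood of adult female first-generation (F1) mice was drawn by cardiac puncture, and its RNA was amplified and hybridised to 1 Affymetrix array per sample. The 3 DBAxFVB F1 samples came from the outcross of DBA/2J with FVB/NJ, and the 2 AKRxFVB F1 samples from that of AKR/J with FVB/NJ. Every animal thus had 1 FVB/NJ parent, no treatment other than anaesthesia at the end is given, and neither group is a control. The study asked which genes differ between these genotypes in basal blood expression. The labels do not say whether the arrays of a cross came from separate animals, so the spread between them may be technical. Differences are DBAxFVB F1 minus AKRxFVB F1 in the deposited log2 values.

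Ran is a small GTPase whose state tells a transport receptor on which side of the nuclear envelope it is. Rcc1, bound to chromatin, loads Ran with GTP in the nucleus, and Rangap1 in the cytoplasm makes Ran hydrolyse it, with the help of Ranbp1 and Ranbp2. Importins such as Kpnb1, often through adaptors such as Kpna2, release cargo when they meet Ran-GTP, whereas exportins such as Xpo1 pick cargo up with it. Mature red cells have no nucleus, so in blood this machinery works in leukocytes and in nucleated precursors of the other lineages. Which blood cells gave the RNA measured here was not tested.

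The windows around the annotated starts of 4 of the genes are shown: Ran, Ranbp2 and Xpo1, whose highest-mean probe sets had the largest differences between the crosses, and Rangap1, the only one of the 8 measured genes that read higher in DBAxFVB F1 blood. The windows are those of RefSeq (GRCm38.p6), 250 bases before to 50 after the start, 5′ to 3′ on the strand of the gene. Capitals mark matches, on either strand, to CACGTG (the E-box), CCAAT (the CCAAT box), GGGCGG (the GC box), CCGGAA (a core of sites for the ETS family), TATAAA (the TATA box) and GGCGGGAA (a form of the E2F motif).
Ran (chr5:129019906-129020205, plus strand): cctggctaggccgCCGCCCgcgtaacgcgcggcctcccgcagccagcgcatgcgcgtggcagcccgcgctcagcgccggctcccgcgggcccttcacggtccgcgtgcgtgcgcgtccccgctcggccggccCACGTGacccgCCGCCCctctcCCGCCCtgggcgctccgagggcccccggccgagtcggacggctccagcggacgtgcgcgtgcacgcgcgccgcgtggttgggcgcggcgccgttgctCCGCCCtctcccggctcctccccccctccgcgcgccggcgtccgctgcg
Ranbp2 (chr10:58446602-58446901, plus strand): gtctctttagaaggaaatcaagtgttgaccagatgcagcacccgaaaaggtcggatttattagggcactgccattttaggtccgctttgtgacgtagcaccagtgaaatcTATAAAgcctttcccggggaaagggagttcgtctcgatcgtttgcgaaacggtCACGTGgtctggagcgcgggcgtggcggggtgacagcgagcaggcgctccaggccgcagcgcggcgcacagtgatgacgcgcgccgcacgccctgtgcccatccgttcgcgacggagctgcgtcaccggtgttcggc
Xpo1 (chr11:23255791-23256090, plus strand): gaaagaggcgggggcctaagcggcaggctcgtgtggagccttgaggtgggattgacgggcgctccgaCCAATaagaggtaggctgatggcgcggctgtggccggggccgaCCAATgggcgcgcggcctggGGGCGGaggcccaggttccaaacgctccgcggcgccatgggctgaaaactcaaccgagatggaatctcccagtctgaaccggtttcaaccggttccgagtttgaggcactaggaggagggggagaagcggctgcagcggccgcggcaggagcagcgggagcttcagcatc
Rangap1 (chr15:81729870-81730169, minus strand): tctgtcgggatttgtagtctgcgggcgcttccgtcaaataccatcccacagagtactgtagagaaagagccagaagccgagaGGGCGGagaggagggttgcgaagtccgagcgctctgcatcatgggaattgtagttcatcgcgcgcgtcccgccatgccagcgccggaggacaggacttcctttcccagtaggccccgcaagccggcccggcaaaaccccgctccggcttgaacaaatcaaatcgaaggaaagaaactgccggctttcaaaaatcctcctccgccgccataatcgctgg

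The 6 motifs were listed after the expression values had been seen, and a match is a run of letters, not a binding site. CACGTG occurred in the windows of Ran and Ranbp2, 118 and 87 bases before their starts, and in no window of the other 6 measured genes, against 7.15% of all 32851 windows. CCAAT occurred in 4 of the 8 windows (Xpo1, Kpnb1, Kpna2 and Ranbp1), against 37.4% of all windows, with 2 copies in that of Xpo1. GGGCGG occurred in 7 of 8, all but that of Ranbp2, against 35.7%. TATAAA occurred once, in the window of Ranbp2, against 13.6%. GGCGGGAA, which can overlap GGGCGG by 5 letters, occurred only in that of Ranbp1, against 2.19%, and CCGGAA occurred in 0 of 8, against 14.9%. The window of Ran was 82.0% G and C and that of Ranbp2 60.0%, against a median of 52.7% over all windows.

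By the highest-mean probe set of each gene, Ran and Ranbp2 read lower in DBAxFVB F1 blood by more than 1 log2 unit. On the same basis Xpo1 was lower by less, Rangap1 was slightly higher, and the crosses overlapped in Rcc1, Ranbp1 and Kpnb1. Over all probe sets, tested or not, the difference ran from -1.58 to -0.28 for Ran and from -1.47 to -0.08 for Ranbp2. In the Ran probe set 1460551_at the crosses overlapped, with a difference of -0.46. Each gene is represented here by the brightest of its tested probe sets, that with the highest mean over the arrays. Of these 8, 7 read lower and 1 read higher in DBAxFVB F1, and their median difference was -0.22, beside 0.05 over the 12421 genes with a tested probe set. In 4 genes, Ran, Ranbp2, Xpo1 and Kpna2, every DBAxFVB F1 array lay below every AKRxFVB F1 array, which was so for 12.6% of all tested probe sets. In 1 gene, Rangap1, every DBAxFVB F1 array lay above, as for 16.4% of all tested probe sets, and in 3 genes the crosses overlapped. The unadjusted limma p was below 0.05 for 3 genes lower in DBAxFVB F1 (Ran, Ranbp2 and Xpo1) and for 0 genes higher, where 6.79% and 3.59% of all tested probe sets had such a p. After Benjamini-Hochberg adjustment over all 22519 probe sets, limma called 0 of the 8 genes and 0% of all probe sets at 0.05, while 2337 probe sets had an unadjusted p below 0.05. Because these genes were chosen with this contrast known, nothing is read from these counts.

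**Figure D1:**
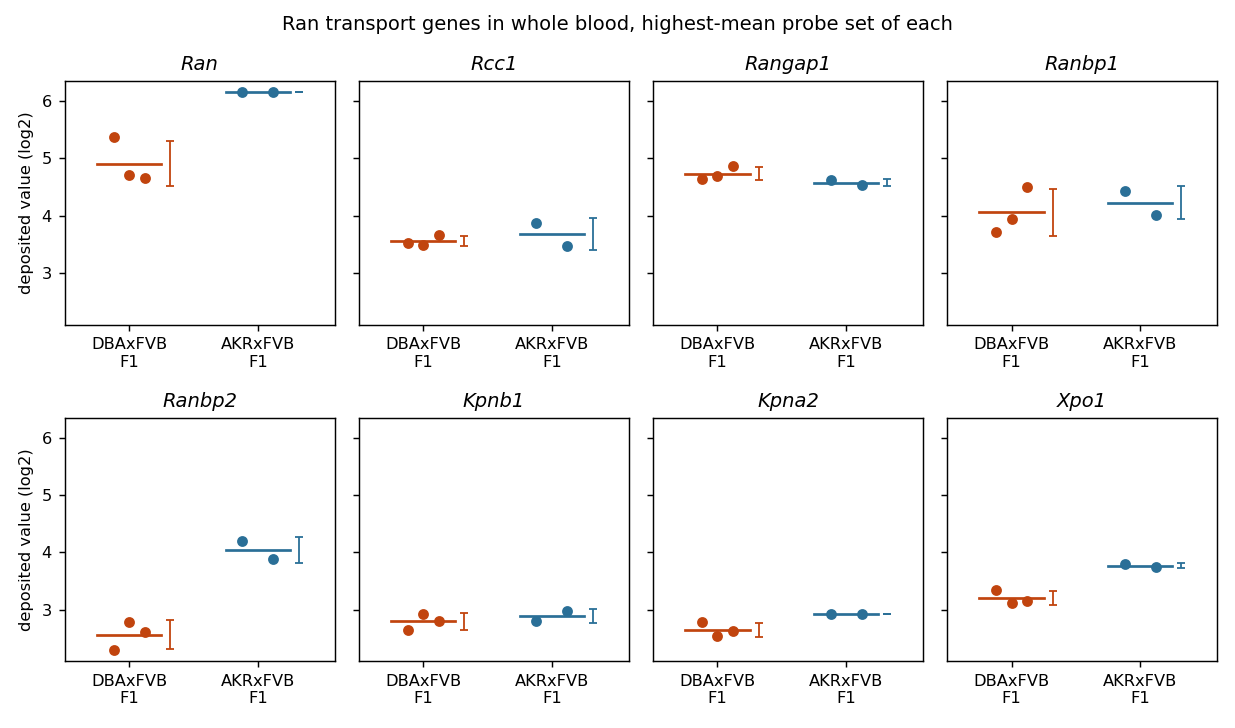
Deposited log2 values of the 8 measured Ran transport genes on each array (points), with the mean (line) and the SD (bar) of the 3 DBAxFVB F1 and 2 AKRxFVB F1 arrays. Ran, Ranbp2, Xpo1 and Kpna2 show DBAxFVB F1 points below all AKRxFVB F1 points, with differences of -1.24, -1.47, -0.56 and -0.28.

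Ran, the GTPase at the centre of the cycle, had 6 probe sets, and all 6 had a lower mean in DBAxFVB F1. Its highest-mean probe set, 1433569_x_at, read 5.36, 4.71 and 4.65 in DBAxFVB F1 blood and 6.15 on both AKRxFVB F1 arrays. The AKRxFVB F1 arrays were thus almost identical, and the nearest DBAxFVB F1 array, array 1, was 0.79 below them. The means were 4.91 ± 0.40 (SD, n = 3) and 6.15, a difference of -1.24 ± 0.30 (limma standard error), or a 2.37-fold lower level in DBAxFVB F1. The probe set 1439270_x_at read 5.15, 4.78 and 4.71 in DBAxFVB F1 and 5.85 and 5.95 in AKRxFVB F1, a difference of -1.02 ± 0.26. The probe set 1438977_x_at read 3.26, 3.13 and 2.95 in DBAxFVB F1 and 4.43 and 4.53 in AKRxFVB F1, a difference of -1.37 ± 0.18. The gap between the crosses, 1.18, was here wider than the range within either of them, 0.30 in DBAxFVB F1 and 0.10 in AKRxFVB F1.

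The remaining Ran probe sets were less uniform. The probe set 1434578_x_at had the largest difference of the 6, -1.58 ± 0.33, with 3.35, 2.45 and 2.45 in DBAxFVB F1 and 4.68 and 3.98 in AKRxFVB F1. The probe set 1436490_x_at lay below the filter, with 2.47, 2.27 and 2.18 in DBAxFVB F1 and 2.65 and 2.50 in AKRxFVB F1. The suffix x is the array maker's mark for probe sets in which some probes also match other transcripts, and 5 of the 6 Ran probe sets carry it. The only Ran probe set without that mark, 1460551_at, was also the only one whose crosses overlapped. It read 3.93, 3.38 and 2.85 in DBAxFVB F1 and 3.81 and 3.89 in AKRxFVB F1, a difference of -0.46 ± 0.30. DBAxFVB F1 array 1 was the highest of the 5 arrays there, and the difference was -0.20 without DBAxFVB F1 array 3 and -0.73 without DBAxFVB F1 array 1. Ran has processed pseudogenes in mouse, and signal from related sequences cannot be told apart from Ran in the marked probe sets.

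**Figure D2:**
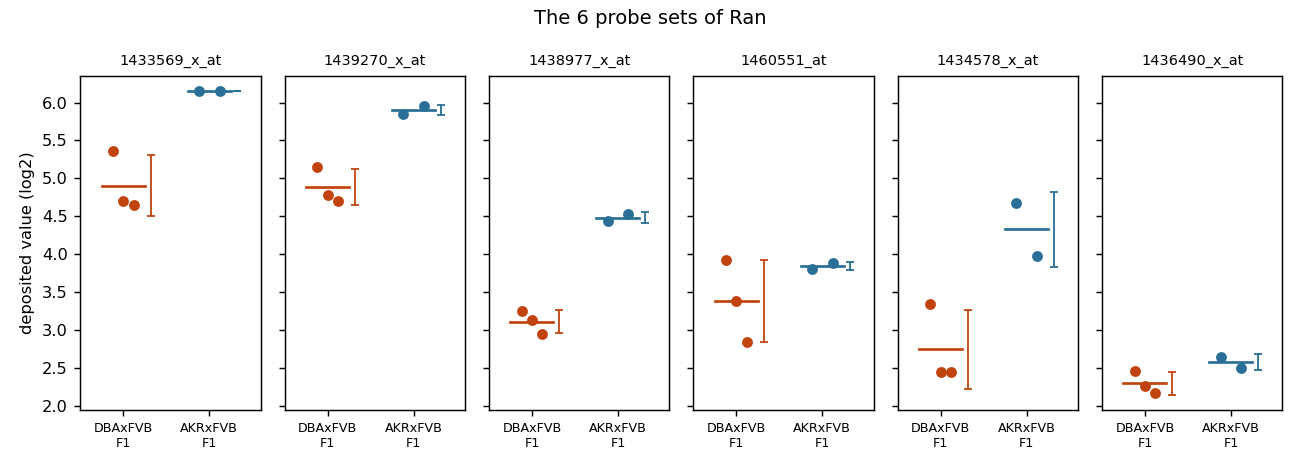
Deposited log2 values of the 6 Ran probe sets on each array (points), in order of their mean, with the mean (line) and the SD (bar) of the 3 DBAxFVB F1 and 2 AKRxFVB F1 arrays. The crosses are apart in the 5 probe sets marked x and overlap in 1460551_at; 1436490_x_at lay below the filter.

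Of the proteins that set the nucleotide on Ran, Rangap1 was the only one of the 8 genes with a higher mean in DBAxFVB F1. Rangap1, the GTPase-activating protein, read 4.64, 4.69 and 4.86 in DBAxFVB F1 and 4.62 and 4.54 in AKRxFVB F1 with 1423749_s_at, a difference of 0.16 ± 0.21. The crosses were apart by only 0.03 there, and they overlapped once the arrays were centred on their medians (0.11) or normalized by cyclic loess (0.15). The probe set 1451092_a_at read 3.90, 3.91 and 3.75 in DBAxFVB F1 and 3.57 and 3.65 in AKRxFVB F1, a difference of 0.25 ± 0.17. These arrays also did not overlap, and they did not overlap under those normalizations. The crosses overlapped in the other Rangap1 probe set, 1444581_at, with 4.45, 4.43 and 3.75 in DBAxFVB F1 and 3.80 and 4.26 in AKRxFVB F1. Its difference, 0.18 ± 0.28, was -0.05 without AKRxFVB F1 array 1. Without DBAxFVB F1 array 3 it was 0.41 with the crosses apart, and that of 1423749_s_at was 0.09. The differences of 1423749_s_at and 1444581_at were smaller than their standard errors.

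Rcc1, the exchange factor, had 1 probe set, which read 3.53, 3.50 and 3.66 in DBAxFVB F1 and 3.87 and 3.48 in AKRxFVB F1. The AKRxFVB F1 arrays held both the highest and the lowest of the 5 values. The difference was -0.11 ± 0.19, with 0.08 without AKRxFVB F1 array 1 and -0.31 without AKRxFVB F1 array 2.

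The Ran-binding proteins differed from each other. Ranbp2, a large nucleoporin of the cytoplasmic side of the pore that binds Ran and Rangap1, read 2.29, 2.79 and 2.62 in DBAxFVB F1 and 4.20 and 3.88 in AKRxFVB F1 with 1450690_at. The crosses were 1.09 apart, and the difference was -1.47 ± 0.20, a 2.78-fold lower level in DBAxFVB F1. The second tested Ranbp2 probe set, 1422621_at, read 2.40, 2.36 and 2.43 in DBAxFVB F1 and 2.94 and 3.08 in AKRxFVB F1, a difference of -0.61 ± 0.13. Neither set of arrays overlapped, but the DBAxFVB F1 means, 2.57 and 2.40, were close to the array medians of 2.49 to 2.54, near the lower end of the scale. Both probe sets derive from the same sequence accession in the annotation and are therefore not independent. The other 2 Ranbp2 probe sets lay below the filter with differences of -0.08 and -0.10, and no array exceeded 1.97.

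Ranbp1, a small cytoplasmic cofactor that releases Ran-GTP from receptors, read 3.72, 3.95 and 4.50 in DBAxFVB F1 and 4.42 and 4.02 in AKRxFVB F1. The highest value was that of DBAxFVB F1 array 3, and the crosses overlapped. The difference of its only probe set was -0.17 ± 0.28, and it was 0.04 without AKRxFVB F1 array 1. Without DBAxFVB F1 array 1 it was 0.0014 and without AKRxFVB F1 array 2 -0.37. Without DBAxFVB F1 array 3 it was -0.39, and the crosses were then apart. No direction can be given.

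Among the receptors, the highest-mean probe sets of Xpo1 and Kpna2 were apart by cross and that of Kpnb1 was not. Xpo1, the exportin for proteins with a leucine-rich export signal, read 3.35, 3.11 and 3.15 in DBAxFVB F1 and 3.80 and 3.74 in AKRxFVB F1 with 1418442_at. The difference was -0.56 ± 0.17, a 1.48-fold lower level in DBAxFVB F1, with a gap of 0.39 between the crosses. A second Xpo1 probe set, 1418443_at, from the same sequence accession, gave the same difference with a larger error, -0.56 ± 0.35. It read 3.17, 2.63 and 2.79 in DBAxFVB F1 and 4.06 and 2.80 in AKRxFVB F1, so that the crosses overlapped and AKRxFVB F1 array 1 stood alone. Without that array its difference was 0.07, and without AKRxFVB F1 array 2 it was -1.19. The Xpo1 probe set below the filter, 1448070_at, pointed the other way by 0.22, with 2.33, 2.19 and 2.47 in DBAxFVB F1 and 2.07 and 2.15 in AKRxFVB F1. In 1448070_at the crosses did not overlap, with a gap of 0.04.

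Kpna2, an adaptor that binds the classical nuclear localization signal, read 2.79, 2.54 and 2.63 in DBAxFVB F1 and 2.93 on both AKRxFVB F1 arrays. Its only probe set differed by -0.28 ± 0.14 and lay not far above the filter. Kpnb1, the importin that carries the Kpna2 adaptor through the pore, read 2.65, 2.93 and 2.81 in DBAxFVB F1 and 2.81 and 2.98 in AKRxFVB F1 with 1448526_at. These arrays overlapped, with a difference of -0.10 ± 0.15 that ranged from -0.19 without AKRxFVB F1 array 1 to -0.01 without AKRxFVB F1 array 2. The other tested Kpnb1 probe set, 1451967_x_at, read 2.56, 2.39 and 2.70 in DBAxFVB F1 and 3.07 and 2.77 in AKRxFVB F1, a difference of -0.37 ± 0.16 with a gap of 0.07, and of -0.22 without AKRxFVB F1 array 1. The probe set 1451967_x_at carries the mark x, so some of its probes also match other transcripts. The 2 Kpnb1 probe sets below the filter differed by -0.32 and -0.18. The direction was thus the same in all 4 Kpnb1 probe sets, at levels close to the lower end of the scale.

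**Figure D3:**
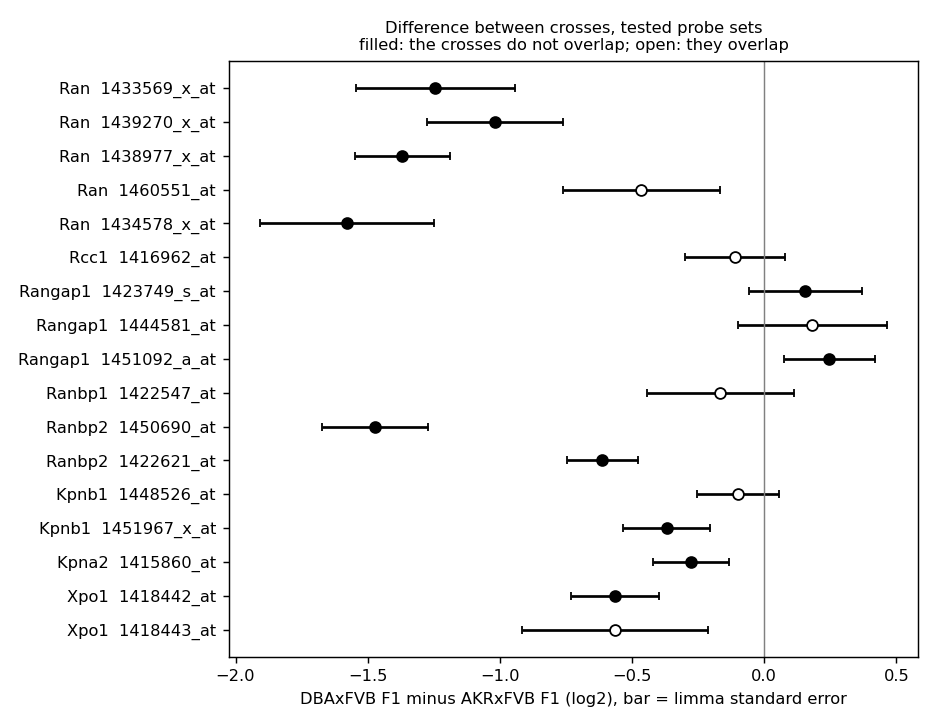
Difference between the crosses (DBAxFVB F1 minus AKRxFVB F1, log2) for the 17 tested probe sets of the 8 genes, with limma standard errors as bars. Filled points, where the arrays of the crosses do not overlap, number 9 below 0 and 2 above 0, where 12.6% and 16.4% of all tested probe sets did so; the 6 open points are those that overlap.

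Over the 17 tested probe sets, 14 were lower and 3, all of Rangap1, were higher in DBAxFVB F1, where 43.2% of all tested probe sets were lower. The crosses did not overlap in 9 of the lower and 2 of the higher ones, beside 12.6% and 16.4% of all tested probe sets, and nothing is read from these counts. The spread among probe sets of 1 gene was wide, from -1.58 to -0.28 over the 6 of Ran and from -1.47 to -0.08 over the 4 of Ranbp2. Across the array, the difference between the crosses moved with the level. At means of 8 to 10, the DBAxFVB F1 arrays lay 0.03, 0.22 and -0.91 from the mean of the arrays. The AKRxFVB F1 arrays lay 0.19 and 0.37 from it, so the shift at that level rested largely on DBAxFVB F1 array 3. Probe sets with a mean of 3 to 4 had a median difference of 0.07 and those of 5 to 6 one of -0.12, with quartiles of -0.54 and 0.15. The highest-mean Ran probe set, with a mean of 5.40, lay below the lower quartile of its range, and that of Ranbp2, with a mean of 3.16, lay below -0.12, the lower quartile of its own.

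**Figure D4:**
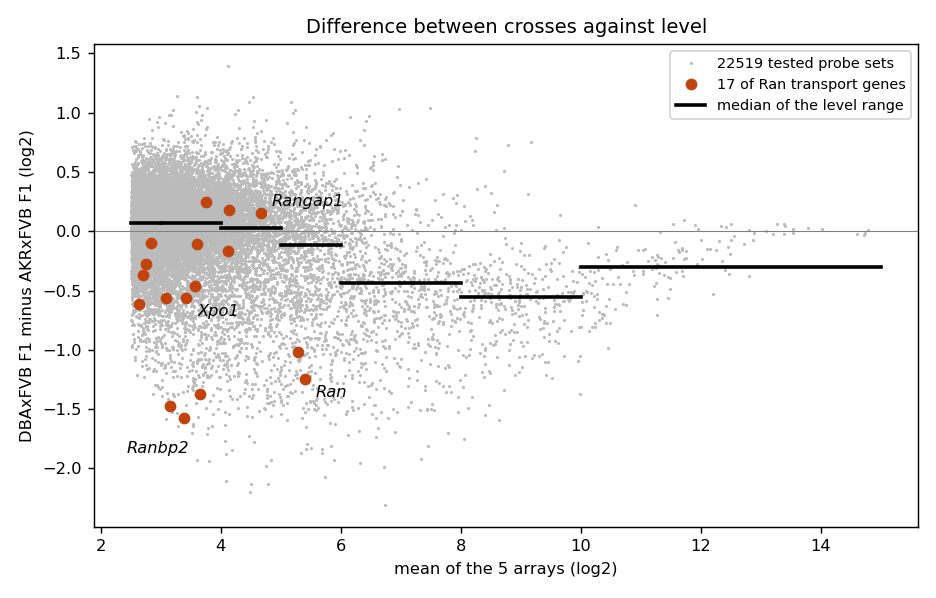
Difference between the crosses (DBAxFVB F1 minus AKRxFVB F1, log2) against the mean of the 5 arrays for 22519 tested probe sets (grey), the 17 of the Ran transport genes (red) and the median of each range of levels (lines). The medians are near 0.07 below a mean of 4 and -0.56 for means of 8 to 10. At means of 8 to 10, DBAxFVB F1 array 3 alone lay 0.91 below the mean of the arrays. The red points of Ran, Ranbp2 and Xpo1 lie below the median of their range.

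The arrays differed in quality and in cell markers. On DBAxFVB F1 array 3, the 18 hybridisation control probe sets had a median of 7.99, against 10.01 to 10.12 on the other arrays, and probe sets with a mean of 8 to 10 lay 0.91 below their mean over the arrays. The 3′ minus 5′ control signal of Actb, a measure of RNA integrity, was 0.82, 0.68 and 1.32 log2 units in DBAxFVB F1 and 1.22 and 1.03 in AKRxFVB F1. For Gapdh it was 0.62, 0.58 and 1.33 in DBAxFVB F1 and 1.04 and 0.73 in AKRxFVB F1. It was highest on DBAxFVB F1 array 3 and lowest on the other DBAxFVB F1 arrays in both genes. Relative to the mean of the arrays, the median of the 6 Ran probe sets was -0.04, -0.52 and -0.71 on the DBAxFVB F1 arrays and 0.65 and 0.63 on the AKRxFVB F1 arrays. Without DBAxFVB F1 array 3 the difference was -1.11 for Ran, -1.50 for Ranbp2 and -0.54 for Xpo1. B cell markers were lower in DBAxFVB F1 for 6 of 7 measured genes, and the sum of their linear values was 129 to 221 in DBAxFVB F1 and 248 to 546 in AKRxFVB F1. Those sums leaned most on Ms4a1, the highest of the 7 on every array, with 5.29, 5.16 and 6.19 in DBAxFVB F1. On the AKRxFVB F1 arrays Ms4a1 read 8.03 and 6.97, and it was the only 1 of the 7 whose crosses did not overlap. T cell markers were lower for 6 of 7, with sums of 159 to 191 in DBAxFVB F1 and 187 to 226 in AKRxFVB F1. All 8 platelet markers had a lower mean in DBAxFVB F1, with sums of 1478 to 5365 in DBAxFVB F1 and 3469 to 7090 in AKRxFVB F1, but that count rested on DBAxFVB F1 array 3, which had the sum of 1478. Without that array, a comparison added after seeing the data, 2 of 8 platelet markers were lower and 6 higher, and B cell, T cell and dividing cell markers were lower for 6 of 7, 5 of 7 and 4 of 8. Markers of dividing cells were split, 4 of 8 tested genes lower, and their sums overlapped, 136 to 210 in DBAxFVB F1 and 192 to 225 in AKRxFVB F1. The part of these cell types in the values of the Ran genes was not tested, and in whole blood fewer cells of a type and less RNA per cell cannot be told apart.

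Sums of erythroid markers were 12220 to 13992 in DBAxFVB F1 and 12542 to 14053 in AKRxFVB F1. Alas2, the first enzyme of erythroid heme synthesis, made up most of each sum and averaged 13.54 in DBAxFVB F1 and 13.52 in AKRxFVB F1. The sums thus say little about the other erythroid markers. Of the 6 tested genes 3 were lower and 3 higher in DBAxFVB F1, and 1 lower and 5 higher without DBAxFVB F1 array 3. Neutrophil marker sums were 222 to 381 in DBAxFVB F1 and 251 to 420 in AKRxFVB F1, and monocyte sums 418 to 804 in DBAxFVB F1 and 735 to 1012 in AKRxFVB F1. Cardiac muscle sums were 50.04 to 73.9 in DBAxFVB F1 and 44.2 to 50.6 in AKRxFVB F1, and epithelial sums 56.8 to 71.2 in DBAxFVB F1 and 46.6 to 49.8 in AKRxFVB F1. In each of these last lists 4 of 8 measured genes lay below the filter, Myh6, Tnni3 and Nppa among the cardiac ones and Cdh1 among the epithelial ones.

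The genes whose profile over the 5 arrays was most like that of Ran were taken by the smallest root mean square distance between profiles centred on their means. They were Ripor2, an inhibitor of RhoA, Chmp4b, a subunit of the membrane-remodelling complex ESCRT-III, Ywhae, which encodes a 14-3-3 protein, the cohesin subunit gene Stag2 and the thymosin gene Tmsb10. Their distances were 0.09 to 0.11 log2 units over 5 arrays, and their differences between the crosses ran from -1.44 to -1.11. Profiles were centred but not scaled, so this choice itself fixes a difference close to that of Ran. The distances of the Ran genes given below in part restate their differences between the crosses, and no link to Ran is read from them. Ripor2, the nearest, read 4.52, 4.05 and 3.77 in DBAxFVB F1 and 5.40 and 5.26 in AKRxFVB F1. Of the Ran genes, Xpo1 was at a distance of 0.38 from Ran, with 337 of 12413 other genes nearer, and Ranbp2 at 0.43, with 574 nearer. Kpna2 followed at 0.51, with 1120 nearer, and Rangap1 was the farthest at 0.75.

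The other genes of nuclear transport were split between the directions, and none passed the test. Of 79 further genes in 6 lists, 61 had a tested probe set, and 32 read lower and 29 higher in DBAxFVB F1, with a median difference of -0.02. After limma's Benjamini-Hochberg adjustment 0 of the 61 passed in either direction, with a smallest adjusted p of 0.16. At an unadjusted limma p below 0.05 there were 7 lower and 3 higher, where 6.79% and 3.59% of all tested probe sets had such a p. Arrays of the crosses did not overlap for 12 genes lower and 8 higher, beside 12.6% and 16.4% of all tested probe sets. Nothing is read from these counts.

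Importin alpha adaptors, the relatives of Kpna2, had 3 of 4 tested genes lower and a median of -0.40. Kpna4 read 2.29, 2.48 and 2.56 in DBAxFVB F1 and 3.14 and 3.40 in AKRxFVB F1, a difference of -0.82 ± 0.16 (limma adjusted p = 0.16), but 1 of its 2 tested probe sets was higher. Kpna1 read 6.93, 6.69 and 5.53 in DBAxFVB F1 and 6.77 and 7.44 in AKRxFVB F1, lowest on DBAxFVB F1 array 3. It differed by -0.72 ± 0.47 with overlapping arrays and was lower in all 5 of its tested probe sets. Kpna7 differed by 0.44 ± 0.18 and Kpna6 by -0.07 ± 0.16. Importins and transportins of the Kpnb1 family had 6 of 10 lower and a median of -0.03. Ipo7, which imports ribosomal proteins, differed by -0.50 ± 0.18 and Tnpo1, the receptor of many RNA-binding proteins, by 0.51 ± 0.21 (limma adjusted p = 0.40 and 0.46). The highest-mean probe set of Tnpo1 was at odds with the other 2, which were lower. Ipo9 and Tnpo2 differed by -0.35 ± 0.23 and -0.27 ± 0.18.

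Exportins other than Xpo1 had 3 of 5 lower and a median of -0.22. Cse1l, which returns importin alpha to the cytoplasm, read 3.11, 3.08 and 3.64 in DBAxFVB F1 and 4.18 and 3.72 in AKRxFVB F1, a difference of -0.67 ± 0.24 (limma adjusted p = 0.40). The transfer RNA exporter Xpot differed by -0.22 ± 0.17 and the microRNA precursor exporter Xpo5 by 0.07 ± 0.14. Xpo7, known from red cell maturation, read 9.37, 9.81 and 8.04 in DBAxFVB F1 and 9.35 and 9.59 in AKRxFVB F1, low only on DBAxFVB F1 array 3. Among Ran cofactors and SUMO proteases, which act on Rangap1 among other proteins, 2 of 4 were lower and the median was 0.06. Ranbp3, a cofactor of Xpo1, differed by -0.02 ± 0.21, Rangrf by 0.19 ± 0.20, Senp1 by 0.13 ± 0.21 and Senp2 by -0.08 ± 0.26.

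Nucleoporins, the proteins of the pore itself, had 7 of 21 lower and 14 higher, with a median of 0.12. The 3 with the smallest p were nevertheless lower. Nup153, of the nuclear basket, read 2.98, 2.89 and 2.19 in DBAxFVB F1 and 3.73 and 3.86 in AKRxFVB F1, a difference of -1.11 ± 0.25 (limma adjusted p = 0.20). Nup58 (Nupl1 in the annotation), of the central channel, differed by -1.10 ± 0.28, with 1 of 2 probe sets lower, and the membrane nucleoporin Pom121 by -0.95 ± 0.26 in the same direction in both of its probe sets. The DBAxFVB F1 means of Nup153 and Nup58, 2.68 and 2.52, were near the lower end of the scale. Rae1, an mRNA export factor at the pore, differed by 0.48 ± 0.18. Messenger RNA export genes, which mostly act without Ran, had 11 of 17 lower and a median of -0.06. Ddx39b, a helicase of the export complex, read 4.63, 4.29 and 4.88 in DBAxFVB F1 and 5.87 and 5.58 in AKRxFVB F1, a difference of -1.13 ± 0.27 (limma adjusted p = 0.23). Sarnp and Thoc5 differed by -0.40 ± 0.18 and -0.29 ± 0.18, and Pcid2 by 0.26 ± 0.20. Without DBAxFVB F1 array 3 the list medians were -0.24 for importin alpha genes, -0.07 for exportins, 0.03 for importins and transportins, 0.08 for Ran cofactors and SUMO proteases, 0.08 for nucleoporins and -0.11 for messenger RNA export genes.

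**Figure D5:**
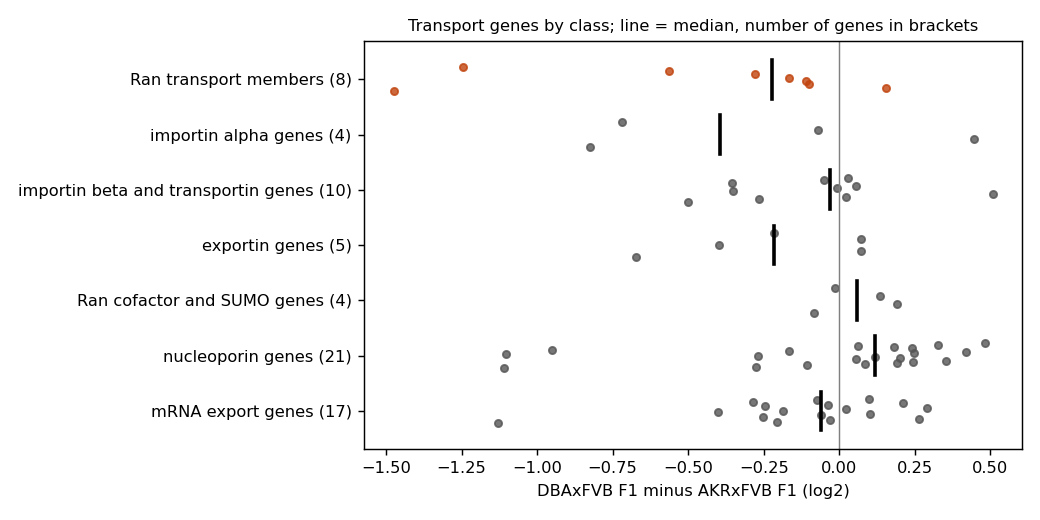
Difference between the crosses (DBAxFVB F1 minus AKRxFVB F1, log2) for each gene of the Ran transport genes (red) and of 6 further transport lists (grey), by highest-mean probe set, with the list median as a line. Medians over all 5 arrays run from -0.40 for importin alpha genes to 0.12 for nucleoporins, and -0.22 for the 8 Ran transport genes.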

How the data were processed

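RNA of whole blood was measured on 5 arrays. The authors deposited 1 normalized log2 value per probe set and array. The base was inferred from the range, 1.29 to 14.8. MAS5 and RMA are named per the submitters' processing notes; which of them gave these values, the background correction and a limit of detection are not given in the sources used here. A method that compresses dim signals would make differences near the lower end too small. Whether the method used here did so is not known, so differences there may be too small or too large.

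The members and gene lists were chosen with earlier results of these data known. Symbols came from the platform annotation: 1 for 34945 probe sets that are not controls, several for 932. Sequences came from RefSeq (GRCm38.p6), where all 9 genes matched. Array controls, 64, were left out. Probe sets with a mean at or above 2.51 entered a fit by limma 3.58.1 under R 4.3.3 (variance trend, cross as the only term, two-sided, Benjamini-Hochberg over 22519). With 2 arrays against 3 the smallest exact permutation p is 0.1, so none was computed. Named genes were the members, up to 4 genes per pathway list by smallest p, and the 5 profiles nearest to Ran. The number of arrays limits the precision. The limma step was also run on simulated data. These had independent errors, no deviant array and no shift with level, so that run does not cover those features of the real arrays. Alternatives were 3 normalizations, 2 filters, other variance models, array weights, a replicate block, other probe sets per gene and each array left out. Python 3.11.15, pandas 2.3.3 and matplotlib 3.10.9 were used.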

Additional observations from a re-analysis of the deposited data

How the results depend on the processing

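The count of probe sets past an adjusted p of 0.05 was 0, for all probe sets and for the 61 other transport genes, under every alternative run, with a smallest adjusted p of 0.064 under array weights. The count of Ran transport genes with an unadjusted p below 0.05 was 3 under every normalization, filter, variance model, array weighting, block and left-out array, and 2 with the tested probe set of lowest mean, a choice added after seeing the data. The crosses did not overlap for 4 or 5 genes in the settings that kept all 5 arrays. The share over all probe sets, 12.6% lower and 16.4% higher, was taken under the main setting only. With 1 array left out fewer arrays must lie apart, so those counts are not set beside these. The median difference over the 8 genes, -0.22, was -0.37 over the 6 genes left by the filter at the 75th percentile and -0.32 with the tested probe set of lowest mean. It ranged from -0.34 to -0.19 with 1 array left out. With the replicate number as a block it was -0.33. Under that block DBAxFVB F1 array 3, whose number no AKRxFVB F1 array shares, adds nothing, and 2438 probe sets had an unadjusted p below 0.05, against 2337 without it. The labels tie the numbers to no shared animal or day, so the numbers were not taken as pairs. The deviations of same-numbered arrays from the mean of their cross correlated at -0.26 and 0.17. With only 2 AKRxFVB F1 arrays their deviations mirror each other, so these correlations cannot decide on pairing. Of 199 values of the 17 tested probe sets under alternatives, 194 kept their sign; the 5 that did not came from leaving out AKRxFVB F1 array 1 (Ranbp1, Rcc1, 1 probe set each of Rangap1 and Xpo1) or DBAxFVB F1 array 1 (Ranbp1). Leaving out an AKRxFVB F1 array leaves 1 in that cross, which is then assumed to vary like the other cross.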
